A study of Mus musculus with 9 samples.

Results

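The genes described here make the lysosome: 15 listed genes of the vacuolar proton pump (V-ATPase) and its accessory proteins, and 25 listed genes of other lysosomal enzymes and membrane proteins. They were taken by name from a list of 40. A gene was kept if the array carried a probe set annotated with that gene symbol alone, and the brightest such probe set over all arrays stood for it. By that rule 38 of the 40 were measured, 14 of the pump and 24 others, out of 18193 genes with such a probe set. Atp6v0c and Cd63 had none and are not analysed here.

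The study microdissected mouse optic cups at E11.5 with a laser and hybridised RNA from each region to Affymetrix mouse arrays. There are 3 regions with 3 arrays each, lettered A, B and C: the optic fissure, taken as cup cells up to 5 cell diameters from its edge, and central pieces of the nasal and of the temporal cup. The labels give the 5 cell diameters for fissure array A only. The labels give the stage but name no strain, genotype or treatment for any region, so the arrays differ by region alone as far as the labels go. The 3 arrays of a region are described as biological replicates, without saying how many embryos each held or whether a letter marks shared embryos. The p-values set each difference between regions against the spread among these samples. What part of that spread lies between embryos is not known.

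Lysosomes are the acidic compartment in which cells break down proteins, sugars and lipids delivered by endocytosis, phagocytosis and autophagy. The V-ATPase acidifies them: its V1 sector hydrolyses ATP in the cytosol and drives protons through the V0 sector in the membrane, and most of the hydrolases inside need the low pH. Many lysosomal genes carry in their promoters a palindromic E-box, the core of the CLEAR element, which is bound by the MiT-TFE factors TFEB, TFE3, MITF and TFEC. In the eye, pigment epithelium and tissue macrophages are both known as cells rich in lysosomes or lysosome-related organelles, and the optic fissure is the ventral gap whose margins meet and fuse as the cup closes.

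The promoter letters are shown first because that E-box is what many of these genes share apart from their role. Windows of 300 bases, 250 before and 50 after the annotated start, came from RefSeq (mouse GRCm38.p6), which held 33 of the 40 listed genes in 38 windows. Atp6v1h, Atp6v1b2, Atp6v1g1, Atp6v1c1, Ctsh, Ctsb and Npc1 had no entry in the table. TCACGTG, searched on both strands, was found in 13 of the 38 windows (34.2%), against 3.77% of all 32851 windows of the table and 5.65% of the 13246 windows of tested genes. The bare hexamer CACGTG, which every TCACGTG contains, was found in 36.8% of the windows, against 7.15% and 9.59%. The full palindrome TCACGTGA, which contains both shorter forms, was found in 18.4%, against 0.974% and 1.71%. These are matches of letters, with no measurement of binding in the study.

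The 6 windows printed here are those of the 4 genes with a TCACGTG match that passed the test for the fissure, followed by the window with the most matches, Lamp1, and that of Gla, whose value in the fissure was the lowest relative to the other regions. They lie at chr7:142387778-142388077 for Ctsd (minus strand), chr2:164833523-164833822 for Ctsa (plus strand), chr12:102439043-102439342 for Lgmn (minus strand), chr8:105566015-105566314 for Atp6v0d1 (minus strand), chr8:13158911-13159210 for Lamp1 (plus strand) and chrX:134600956-134601255 for Gla (minus strand). Ctsa and Lgmn have 2 windows each in the table, and the one that holds the match is shown. Each reads 5′ to 3′ along the gene, and capitals mark TCACGTG on either strand, extended to TCACGTGA where the letters allow.
Ctsd: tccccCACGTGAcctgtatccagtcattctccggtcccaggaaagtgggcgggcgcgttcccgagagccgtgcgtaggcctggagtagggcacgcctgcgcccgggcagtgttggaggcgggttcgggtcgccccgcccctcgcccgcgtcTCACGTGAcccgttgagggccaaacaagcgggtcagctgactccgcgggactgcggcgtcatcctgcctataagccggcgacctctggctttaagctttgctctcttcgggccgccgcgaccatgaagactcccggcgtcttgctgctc
Ctsa: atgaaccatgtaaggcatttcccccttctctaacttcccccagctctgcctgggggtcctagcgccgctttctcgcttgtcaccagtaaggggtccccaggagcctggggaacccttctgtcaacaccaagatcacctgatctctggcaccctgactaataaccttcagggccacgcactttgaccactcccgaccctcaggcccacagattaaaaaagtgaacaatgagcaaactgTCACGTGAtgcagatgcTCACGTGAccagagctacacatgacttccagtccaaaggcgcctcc
Lgmn: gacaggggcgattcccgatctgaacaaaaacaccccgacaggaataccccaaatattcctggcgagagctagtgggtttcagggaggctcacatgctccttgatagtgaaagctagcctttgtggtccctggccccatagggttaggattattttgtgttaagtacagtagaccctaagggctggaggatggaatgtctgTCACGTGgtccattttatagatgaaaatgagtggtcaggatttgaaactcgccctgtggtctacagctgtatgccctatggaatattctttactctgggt
Atp6v0d1: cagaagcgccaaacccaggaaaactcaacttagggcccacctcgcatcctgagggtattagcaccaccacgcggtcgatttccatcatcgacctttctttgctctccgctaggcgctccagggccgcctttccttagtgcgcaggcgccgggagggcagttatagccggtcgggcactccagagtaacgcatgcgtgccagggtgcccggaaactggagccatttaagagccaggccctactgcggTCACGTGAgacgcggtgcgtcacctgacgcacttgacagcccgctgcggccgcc
Lamp1: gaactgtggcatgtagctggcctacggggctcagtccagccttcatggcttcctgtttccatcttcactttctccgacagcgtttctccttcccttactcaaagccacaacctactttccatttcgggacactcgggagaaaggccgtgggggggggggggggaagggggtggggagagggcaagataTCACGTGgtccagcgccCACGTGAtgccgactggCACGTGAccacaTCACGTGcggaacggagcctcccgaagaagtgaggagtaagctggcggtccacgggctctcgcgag
Gla: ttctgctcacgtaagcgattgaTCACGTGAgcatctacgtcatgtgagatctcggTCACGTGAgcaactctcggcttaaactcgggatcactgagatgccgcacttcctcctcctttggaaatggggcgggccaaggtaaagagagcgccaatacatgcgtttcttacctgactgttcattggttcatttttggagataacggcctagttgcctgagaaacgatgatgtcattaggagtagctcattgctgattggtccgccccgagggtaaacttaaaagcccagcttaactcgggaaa
With the start as +1, the hexamer began at -245 and -98 in Ctsd, at -12 and 6 in Ctsa, at -49 in Lgmn and at -3 in Atp6v0d1. Lamp1 held 4 matches, at -61, -45, -28 and -15, and Gla held 2, at -227 and -194.

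In the optic fissure, 9 of the 38 genes were higher than in the mean of the nasal and temporal cup and 0 were lower, in limma with p-values adjusted over all 12770 tested genes (adjusted p below 0.05). Over all tested genes the same test called 5.72% higher and 2.88% lower. The 9 were 7 proteases (Ctsh, Lgmn, Ctsd, Ctsb, Ctsz, Ctsa and Tpp1), the glycosidase subunit gene Hexa and the pump subunit gene Atp6v0d1, with log2 changes from 0.57 to 1.67. The remaining 29 did not pass. Of the 38 changes 36 lay above 0, with a median of 0.40, against a median of 0.04 over all tested genes, and 21 had an unadjusted p below 0.05, as 2819 of the 12770 tested genes did. Neither of the genes below 0, Gla and Atp6v1a, was among those 21. Changes are on the log2(intensity + 16) scale, which understates the change of dim genes. All 38 genes lay above the intensity filter on all 9 arrays, so no gene entered through 1 region.

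In 16 of the 38 genes all 3 fissure arrays lay above all 6 others, against 8.41% of all tested genes, and 9 of those 16 were proteases. The fissure had the highest mean of the 3 regions in 35 of the 38, against 47.1% of all tested genes. The measurements are of bulk tissue, in which fewer cells of a type and less RNA per cell cannot be told apart, and the same holds for more cells and more RNA.

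**Figure D1:**
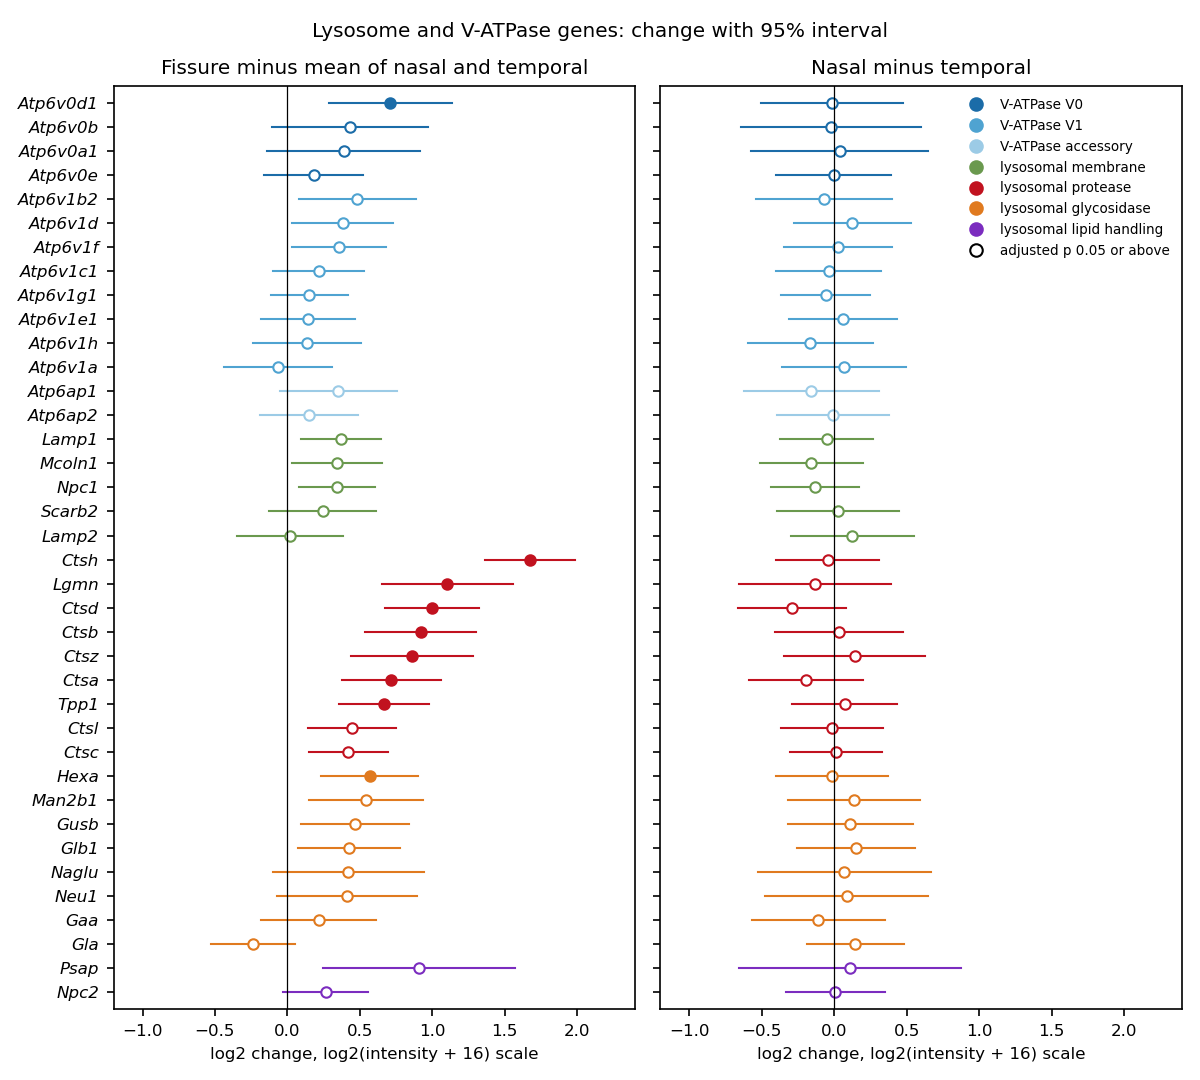
Log2 change of each of the 38 genes with its 95% interval from limma, in the fissure against the mean of both other regions (left) and in nasal against temporal cup (right), coloured by role; filled points passed at adjusted p below 0.05. On the left the proteases lie farthest to the right, from 0.42 to 1.67, and all but Gla and Atp6v1a lie above 0; on the right no gene passed and values run from -0.29 to 0.15.

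The lysosomal proteases gave the most calls, 7 of 9, with a median change of 0.86 and a range of 0.42 to 1.67. In each of the 9 every fissure array was above every other array. Ctsh, a cysteine protease that acts mainly as an aminopeptidase, read 127, 129 and 148 in fissure arrays A, B and C, 24.6, 30.4 and 36.9 in nasal arrays and 32.3, 26.5 and 37.5 in temporal arrays. The 3 fissure arrays were close to each other and far above the others, and the ratio of mean intensities was 4.29. The log2 change was 1.67 (SE 0.14, adjusted p = 3.16e-05).

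Lgmn, the asparaginyl endopeptidase legumain, which processes cathepsin precursors, read 276, 129 and 234 (arrays A, B and C) in the fissure, 77.3, 81.7 and 86.1 nasally and 91.5, 75.7 and 109 temporally. Fissure array B was well below A and C but still above the highest other array. The change was 1.10 (SE 0.21, adjusted p = 0.00618). Ctsd, the main aspartic protease of lysosomes, read 2140, 1456 and 1908 in the fissure, 779, 841 and 812 in nasal and 989, 1086 and 923 in temporal samples. All 3 temporal arrays were above all 3 nasal arrays and below all fissure arrays. The change from the mean of the 2 other regions was 0.999 (SE 0.15, adjusted p = 0.00136).

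Ctsb, a cysteine protease, read 2260, 1476 and 2326 in the fissure, 1021, 1110 and 1026 nasally and 1063, 856 and 1191 temporally, a change of 0.92 (SE 0.17, adjusted p = 0.00658). Ctsz, a carboxypeptidase of the same class, read 854, 537 and 595 in the fissure, 443, 327 and 346 nasally and 389, 368 and 257 temporally, a change of 0.86 (SE 0.19, adjusted p = 0.0163). In Ctsz it was fissure array A that stood above the other fissure arrays, and in Ctsb it was array B that lay below them. Ctsa, a serine carboxypeptidase that also protects the enzymes made from Glb1 and Neu1, read 885, 658 and 865 in the fissure, 482, 381 and 480 nasally and 509, 449 and 587 temporally, a change of 0.72 (SE 0.16, adjusted p = 0.0144). Tpp1, which removes tripeptides from protein ends, read 1548, 1197 and 1511 in the fissure, 860, 976 and 886 nasally and 797, 807 and 992 temporally, a change of 0.67 (SE 0.14, adjusted p = 0.0134). For both genes the fissure arrays lay clear of the rest, with the B array lowest of the 3 in the fissure.

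The 2 proteases that did not pass had the smallest changes of the group. Ctsl read 3863, 3110 and 3052 in the fissure against 2238 to 2762 in the other arrays, a change of 0.45 (adjusted p = 0.0734 without and 0.0191 with the replicate letter as a block in the limma fit). Ctsc, which activates proteases of immune cells, read 1243, 1215 and 1209 in the fissure against 829 to 978 elsewhere, a change of 0.42 (adjusted p = 0.0627, and 0.0294 with the block). So with the letter in the fit all 9 proteases passed.

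**Figure D2:**
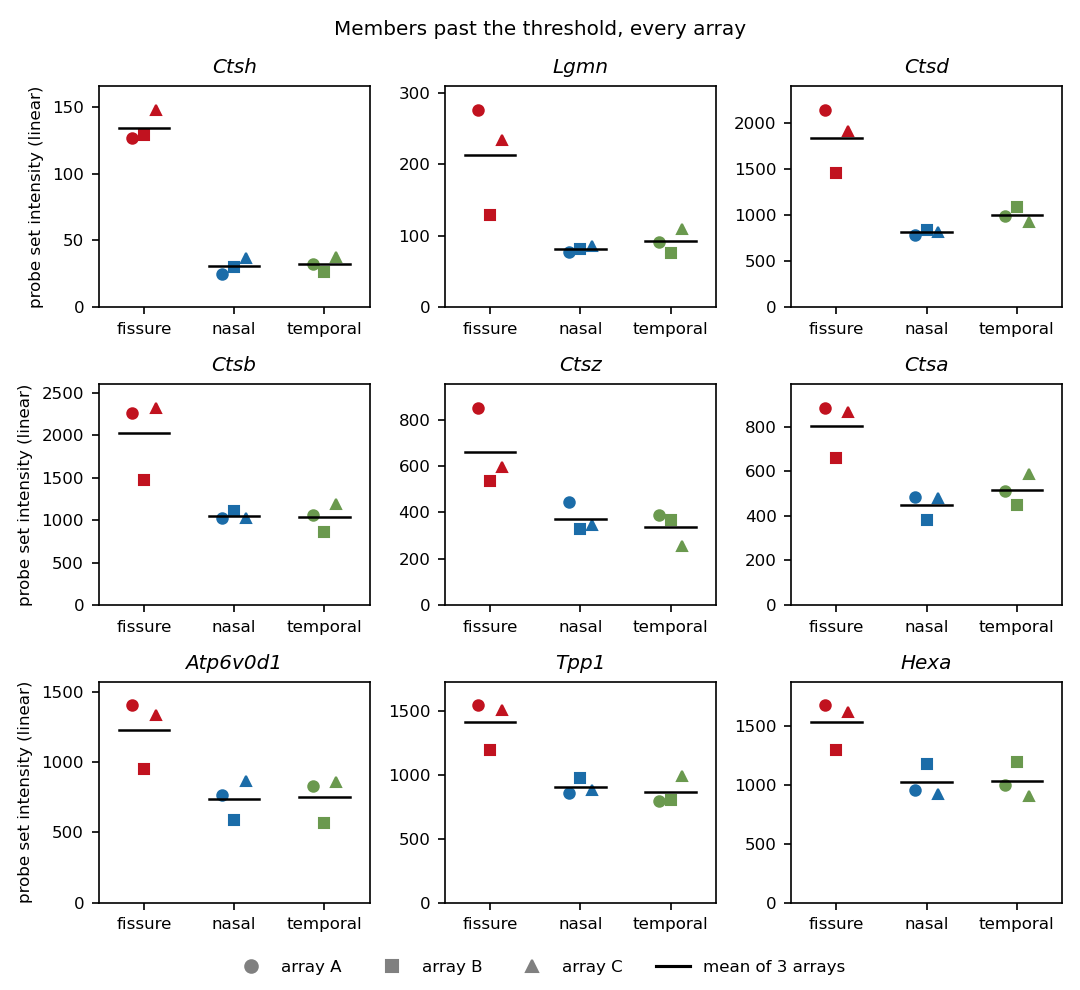
Probe set intensity (linear scale, starting at 0) on every array for the 9 genes that passed in the fissure, with circles, squares and triangles for arrays A, B and C and a bar for the mean of each region (n = 3). In each panel the 3 fissure arrays lie above the 6 others, and in all but Ctsh the square, array B, is the lowest of the fissure arrays.

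Among the 8 genes of sugar-cleaving enzymes 1 passed, with a median change of 0.42. Hexa, the alpha subunit of beta-hexosaminidase, read 1676, 1294 and 1623 in the fissure, 962, 1179 and 923 nasally and 996, 1192 and 909 temporally, a change of 0.57 (SE 0.15, adjusted p = 0.0404). Array B was the highest of its region nasally and temporally and the lowest in the fissure, so the gap between regions was narrowest there. Man2b1 (alpha-mannosidase, 0.54), Gusb (beta-glucuronidase, 0.47), Glb1 (beta-galactosidase, 0.43) and Naglu (which degrades heparan sulphate, 0.42) did not pass, with adjusted p of 0.0931, 0.127, 0.137 and 0.332. With the letter as a block these 4 passed in limma, with adjusted p of 0.00993, 0.0224, 0.0349 and 0.0329. Neu1 (sialidase, 0.41) and Gaa (acid alpha-glucosidase, 0.22) passed in neither fit. Gla, alpha-galactosidase A, read 83.4, 73.1 and 63.9 in the fissure, 105, 93.1 and 86.2 nasally and 90.5, 78.3 and 83.3 temporally. Its arrays overlapped, and its change of -0.24 had a 95% interval of -0.53 to 0.05 (adjusted p = 0.328).

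Of the 2 genes that handle lipids 0 passed, with 1 at an unadjusted p below 0.05. Psap, the precursor of the saposins that present lipids to hydrolases, read 1643, 834 and 1716 in the fissure, 916, 948 and 444 nasally and 791, 824 and 470 temporally. Its fissure A and C arrays were above all others while array B lay among them, and the C arrays were the lowest in both other regions. The change was 0.91, larger than that of several genes that passed, with an SE of 0.30 and an adjusted p of 0.0934. Npc2, the soluble cholesterol carrier, read 4797, 4849 and 5131 in the fissure against 3490 to 4604 elsewhere, so the groups did not overlap. Its change was 0.26 (adjusted p = 0.28).

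None of the 5 lysosomal membrane genes passed, with a median change of 0.34 and 3 at an unadjusted p below 0.05. Lamp1, an abundant glycoprotein of the lysosomal membrane, read 2704, 2543 and 3082 in the fissure, 2143, 2112 and 2032 nasally and 2345, 2085 and 2102 temporally. The groups did not overlap, and the change of 0.37 had an adjusted p of 0.0986, or 0.0482 with the block. Npc1, which exports cholesterol together with Npc2, changed by 0.34 and so did the calcium channel gene Mcoln1, with adjusted p of 0.112 and 0.174. In both the fissure arrays lay above all others. Scarb2, the receptor that carries glucocerebrosidase to lysosomes, changed by 0.24 (adjusted p = 0.446). Lamp2, which also serves chaperone-mediated autophagy, read 2608, 3765 and 2639 in the fissure, 3168, 3498 and 2573 nasally and 2995, 2998 and 2455 temporally, overlapping throughout, with a change of 0.02 (95% interval -0.35 to 0.38). The other probe sets of Lamp2 all gave larger changes, as described below.

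Of the 14 pump genes 1 passed, close to the 5.72% of all tested genes, with a median change of 0.28 and a range of -0.07 to 0.71. It was Atp6v0d1, the V0 subunit that couples the stalk to the membrane ring, at 1404, 952 and 1334 in the fissure, 769, 590 and 863 nasally and 828, 565 and 861 temporally. The B array was the lowest in each of the 3 regions, and within each letter the fissure was clearly the highest. The change was 0.71 (SE 0.19, adjusted p = 0.0431). The other V0 genes gave 0.43 for Atp6v0b, 0.39 for Atp6v0a1 and 0.18 for Atp6v0e.

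The 8 V1 genes had a median change of 0.18 and none passed, with 3 at an unadjusted p below 0.05. Atp6v1b2, a subunit of the ATP-hydrolysing ring, had the smallest p among them, at 849, 747 and 869 in the fissure, 513, 753 and 472 nasally and 500, 769 and 553 temporally. In letters A and C the fissure was far above the others, and in letter B the 3 regions were level. The change was 0.48 (adjusted p = 0.144). Atp6v1d and Atp6v1f gave 0.38 and 0.36, and Atp6v1c1, Atp6v1g1, Atp6v1e1 and Atp6v1h lay between 0.14 and 0.22. Atp6v1a, the catalytic subunit, gave -0.07 (95% interval -0.44 to 0.31), with 1176, 837 and 1035 in the fissure inside the span of the other arrays. The accessory genes Atp6ap1 and Atp6ap2, which take part in assembling the pump, gave 0.35 and 0.15 (adjusted p = 0.298 and 0.623).

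The fissure arrays were not alike, and the counts of genes higher in the fissure moved with them. Fissure array B stood apart from A and C on the first principal component of all tested genes, at -9.40 against -38.6 and -43.0. It was the lowest fissure array in 24 of the 38 genes (63.2%, against 50.2% of all tested genes) and in 8 of the 9 that passed. Within letter A the fissure array was the highest of the 3 regions in 34 of the 38 genes, within letter B in 25 and within letter C in 36, against 49.97%, 35.5% and 46.0% of all tested genes. The median difference from the mean of the nasal and temporal array was 0.55, 0.23 and 0.48 in letters A, B and C. For the 9 proteases the fissure was the highest in every letter, with medians of 1.01, 0.60 and 0.96. For the 14 pump genes it was the highest in 12, 6 and 13.

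The letters behaved as a pairing in the data, and with the letter as a block in limma 16 of the 38 genes passed, against 11.0% of all tested genes. These 16 were the 9 above with Lamp1, Ctsc, Ctsl, Glb1, Gusb, Man2b1 and Naglu, so 15 of 24 lysosomal genes and 1 of 14 pump genes. Without fissure array A the unblocked count was 3, without array C it was 5 and without array B 17. Ctsh, Lgmn and Ctsd passed whichever 1 of the 9 arrays was left out. Without fissure array A the adjusted p rose to 0.0529 for Ctsb, 0.111 for Ctsz, 0.0933 for Tpp1 and 0.0972 for Ctsa, and without array C to 0.0801 for Tpp1 and 0.0843 for Ctsa. Atp6v0d1 lost its call when fissure A or C, nasal A or B, or temporal A or B was left out, and Hexa when fissure A or C, nasal A or C, or temporal A or C was, with adjusted p up to 0.213 and 0.202. Both also lost it with no filter (0.0623 and 0.0511), median centring (0.0511 and 0.0592) or a pseudocount of 1 (0.0776 and 0.0647). The 3-prime signal of Gapdh over its 5-prime signal, a sign of RNA quality, read 8.12, 4.93 and 14.96 in the fissure, 6.08, 4.90 and 8.77 nasally and 7.42, 4.46 and 6.69 temporally. With it as a covariate 7 of the 9 passed, without Atp6v0d1 and Hexa.

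Against the nasal cup alone, 6 genes were higher and 0 lower: Ctsa, Ctsb, Ctsd, Ctsh, Lgmn and Tpp1, all proteases, against 4.41% of all tested genes called higher. Against the temporal cup alone 6 were higher and 0 lower, Ctsb, Ctsd, Ctsh, Ctsz, Lgmn and Tpp1, against 3.47%. These comparisons share the fissure arrays. Ctsa was at 0.82 against nasal (adjusted p = 0.0201) and 0.62 against temporal (adjusted p = 0.0756), and Ctsz was at 0.79 (adjusted p = 0.0598) and 0.93 (adjusted p = 0.0314), by limma. Neither gene passed between the nasal and temporal cup, so their calls on one side alone do not set the sides apart. Of the 14 pump genes 0 passed in either comparison, with 2 at an unadjusted p below 0.05 in each and 1 past the threshold in each with the block. Over all 12770 tested genes 2368 against nasal and 2328 against temporal had an unadjusted p below 0.05. With the letter as a block, 10 genes passed against nasal (8.28% of all tested genes) and 12 against temporal (7.70%). Leaving out 1 array moved the nasal count to 2 (without fissure A, fissure C or nasal A) or 3 (without nasal B). Without fissure B it was 12. The temporal count moved to 1 (without fissure A, fissure C or temporal A) or 2 (without temporal B). Without fissure B it was 15. The count of all tested genes passing, higher or lower, moved too. With 1 array left out it ran from 420 to 1245 against nasal and from 372 to 1161 against temporal.

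Between the nasal and temporal cup 0 of the 38 genes passed in limma, and 0 had an unadjusted p below 0.05. Over all tested genes 6 passed, 0.0470%, and 371 had an unadjusted p below 0.05. The changes, nasal minus temporal, ran from -0.29 to 0.15 with a median of 0.00. The lowest was that of Ctsd, whose 95% interval of -0.67 to 0.08 includes 0 but also sizable differences. Ctsh, with the largest change in the fissure, stood at -0.05 here (95% interval -0.40 to 0.31). Intervals of this width leave room for differences of the size seen in many of these genes in the fissure.

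**Figure D3:**
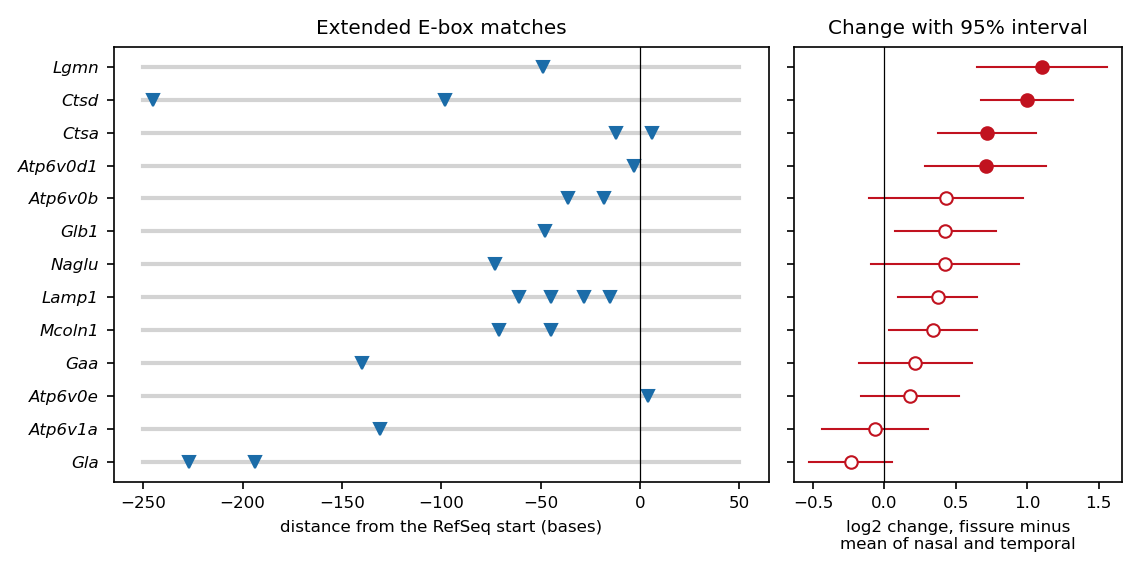
Positions of TCACGTG matches on either strand in the promoter windows of 13 genes, in bases from the RefSeq start (left, grey bar the window), and the log2 change of each gene in the fissure with its 95% interval (right; filled, adjusted p below 0.05). Genes are ordered by change from Lgmn at 1.10 to Gla at -0.24, and matches near the start occur in genes that passed and in genes that did not.

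Genes with and without an E-box match were set side by side, with no test of the difference. Of the 31 measured genes with a window, 13 held TCACGTG, of which 4 passed, with a median change of 0.42, and 18 did not, of which 3 passed, with a median of 0.40. Ctsh and Ctsb, which passed, have no window and stand in neither count. Lamp1 has the most matches and changed by 0.37, and Gla has 2 full palindromes and changed by -0.24. No match in a window says only that these letters are not in those 300 bases.

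Among the MiT-TFE factors and the mTORC1 platform on the lysosome, 3 of 17 measured genes were higher in the fissure and 0 lower, with a median change of 0.28. Mitf, the family member best known from pigment cells, read 2402, 2236 and 2575 in the fissure, 1423, 1257 and 1158 nasally and 1308, 1068 and 1328 temporally, a change of 0.93 (SE 0.14, adjusted p = 0.00132). Tfec, a family member known from macrophages and pigment epithelium, read 211, 160 and 198 in the fissure, against 24.9 ± 5.10 nasally and 26.3 ± 13.3 temporally (SD, n = 3 each), a change of 2.33 (SE 0.20, adjusted p = 3.16e-05). Flcn, folliculin, which acts on the Rag GTPases, read 693, 632 and 807 against 290 to 536, a change of 0.84 (adjusted p = 0.0149). In all 3 the groups did not overlap. Tfeb and Tfe3 did not pass, at 0.47 and 0.42 (adjusted p = 0.229 and 0.402).

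The rest of the pathway was read from 4 further lists, of genes that are not among the 40. Of other lysosomal hydrolases and their activators, 6 of 36 were higher and 0 lower, with a median of 0.42, and 17 of 36 were higher with the block, under which 11.0% of all tested genes were, the share that the blocked counts of the other lists are also set against. Ctss, cathepsin S, a protease abundant in antigen-presenting cells, read 667, 818 and 736 in the fissure against 48.3 to 131 elsewhere, a change of 2.92 (SE 0.22, adjusted p = 1.64e-05). Manba (beta-mannosidase) changed by 0.82, Ctsf (a cysteine protease) by 0.81, Arsb (arylsulfatase B) by 0.68, Gm2a (the GM2 activator) by 0.67 and Naaa (an amidase) by 0.65, with adjusted p from 0.00352 to 0.0309. Of other membrane proteins 2 of 21 were higher, Laptm5 at 2.41 and Cd68 at 1.27, with adjusted p of 9.8e-06 and 0.000631, and 5 were higher with the block. Of other pump subunit genes 1 of 6 was higher, Atp6v1b1, the B1 isoform, at 1.14 (adjusted p = 0.00114), from 49.4, 34.6 and 62.3 in the fissure against 8.3 to 17.6 elsewhere.

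Of 21 genes that sort proteins to lysosomes and related organelles, 1 was higher and 1 lower, or 4 and 1 with the block. Gnptg, a subunit of the enzyme that tags hydrolases with mannose phosphate, changed by 0.78 (adjusted p = 0.0389). It was dim, at 58.3, 29.6 and 46.4 in the fissure against 13.1 to 30 elsewhere, so fissure array B overlapped the other regions. Rab27a, which moves melanosomes, changed by -0.85 (adjusted p = 0.00599), from 149, 151 and 132 in the fissure against 233 to 347 elsewhere. Over the 5 lists 13 of 101 genes were higher and 1 lower, with a median of 0.29, against 5.72% and 2.88% of all tested genes. Ctss, Cd68 and Laptm5 also stand in the list of macrophage markers, and Rab38, of the sorting genes, in that of pigment epithelium markers.

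**Figure D4:**
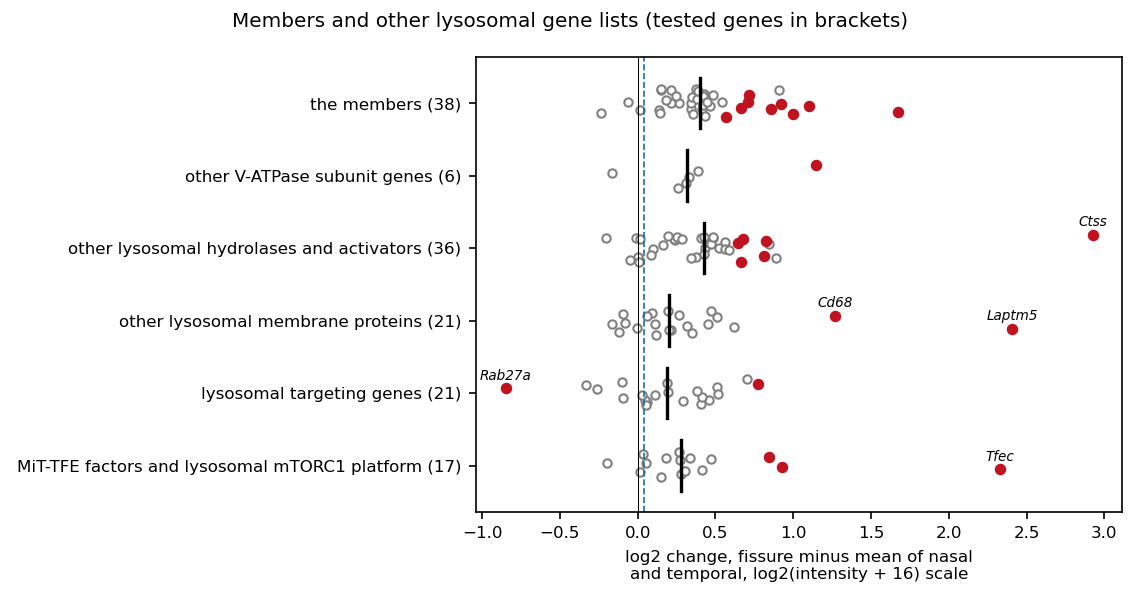
Log2 change in the fissure of the 38 genes and of the tested genes of the 5 pathway lists (1 point a gene, spread vertically to avoid overlap; filled, adjusted p below 0.05; black bar, median of the list; dashed line, median of all tested genes). The medians lie from 0.19 to 0.42 and that of all tested genes at 0.04; Ctss, Laptm5 and Tfec lie farthest to the right and Rab27a farthest to the left.

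Markers of several cell types moved with the region. Of 24 macrophage and leukocyte markers all were measured, 21 were tested and 20 were higher in the fissure. Their summed intensity was 3463 to 4495 in the fissure, 765 to 1017 in nasal and 649 to 926 in temporal samples. The brightest, Csf1r, read 859 to 951 in the fissure and 236 to 400 elsewhere. C1qa and C1qc were near 0 outside the fissure, at 1.3 to 4.6 and 1.4 to 6.8, and read 30.9 to 54.2 and 50.5 to 130 within it. Not all markers rose. Spi1, tested but not passing, changed by 0.11 (adjusted p = 0.684). Itgam and Trem2 were dim and untested, at 5.7 to 7.9 and 12.3 to 15 in the fissure. Elsewhere they read 4.3 to 14 and 1.7 to 31.3, so both overlapped. Fissure array B had the lowest macrophage sum of the fissure arrays. It also had the lowest sums of optic cup progenitor, mesenchyme, endothelial and erythroid markers, but not of lens or pigment epithelium markers. Of all tested genes 50.2% were lowest in array B among the fissure arrays. None of the 40 genes is in a marker list. The part of macrophages and leukocytes in the results above was not tested.

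The 10 lens markers summed to 2532 to 3646 in the fissure, 673 to 717 nasally and 607 to 1286 temporally. Of the 7 tested 5 were higher, with Maf the brightest, while the lens genes Foxe3 and Mip were near 0 on all arrays, at no more than 4.4 and 10.3. The 12 measured mesenchyme markers summed to 1377 to 2928, 872 to 1441 and 718 to 1552, with 5 higher and 2 lower. The lowest fissure sum was again that of array B, which lay inside the ranges of both other regions. The 14 pigment epithelium markers went the other way, at 11256 to 13565 in the fissure, 14007 to 17066 nasally and 13456 to 16849 temporally, with 7 lower and 0 higher. Their fissure and temporal sums overlapped, at fissure array A and temporal array C. Tyr and Oca2 were among the 7, with changes of -1.17 and -1.39, while 3 of the 14 had changes above 0, namely Rab38 (0.52), Trpm1 (0.30) and Sox10 (0.10). With the block 1 passed higher and 9 lower. The 9 optic cup progenitor markers summed to 8311 to 8946, 12448 to 15241 and 13405 to 14882, with 3 lower and 0 higher. Their changes ran from -2.60 to 0.62, with 2 above 0, and with the block 1 progenitor marker passed higher and 3 lower. Pax6, Six3, Six6, Rax, Lhx2 and Sox2, genes that define the labelled tissue, were well above 0 on all arrays. Endothelial sums overlapped between regions, at 422 to 787, 373 to 516 and 418 to 620. So did erythroid sums, at 13366 to 18028, 9494 to 14847 and 11562 to 13395, and 0 of 8 tested endothelial and 0 of 5 tested erythroid markers passed in limma. At an unadjusted p below 0.05 there were 2 and 4, and with the block 1 and 3 passed. The part of these cell types in the results was not tested either.

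**Figure D5:**
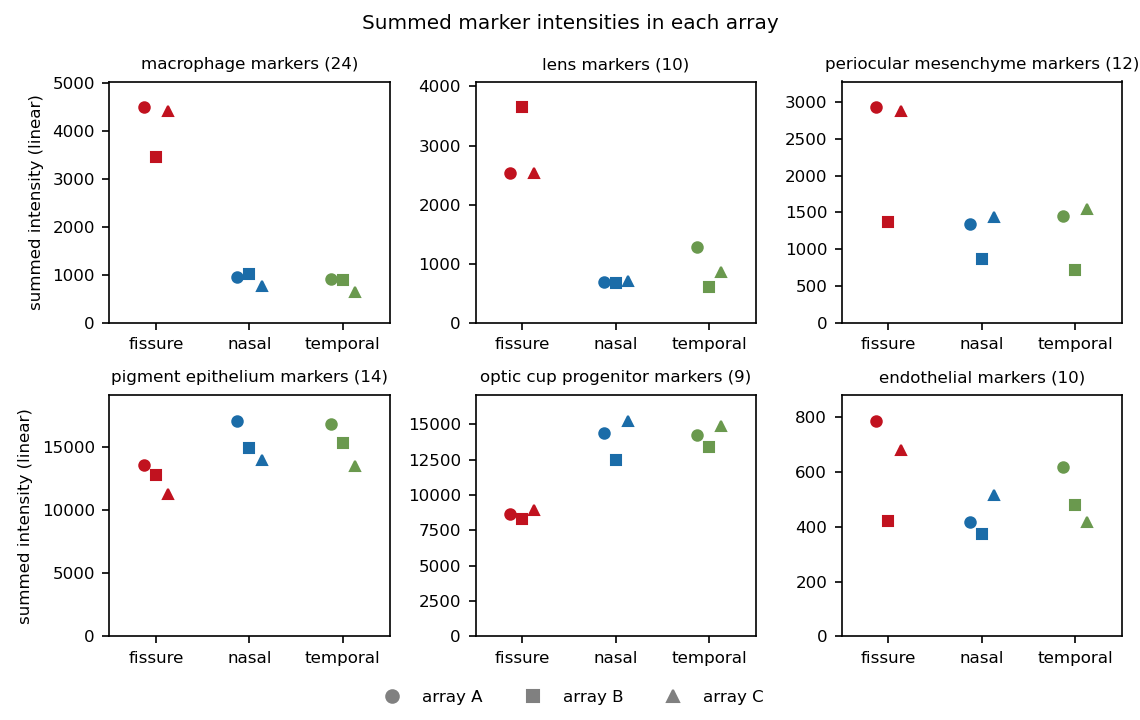
Summed probe set intensity (linear scale, starting at 0) of the markers of 6 cell types on each array, with the number of markers summed in brackets and circles, squares and triangles for arrays A, B and C. Macrophage sums lie at 3463 to 4495 in the fissure and at or below 1017 elsewhere, and lens sums are also highest in the fissure, while pigment epithelium and progenitor sums are lower there than in most or all other arrays.

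The choice of probe set mattered for some genes. For Ctsa the other probe set gave 0.04. With the mean of all its probe sets the change was 0.38 (adjusted p = 0.0739 in limma), so its call was lost. That other probe set was dim, at 16.7 to 26.2 over all arrays, against 381 to 885 for the brightest. Its mean intensities were 23.5 in the fissure, 22.2 nasally and 22.8 temporally, and the arrays of the regions overlapped. It was therefore flat on the linear scale as well, and averaging it in lowers the mean change. Which of the probe sets reads Ctsa better was not tested. Of the 38 genes, 27 have further probe sets with their symbol alone, 51 in all, of which 42 passed the filter. In a limma fit of 23503 probe sets the brightest ones of Atp6v0d1 and Hexa were at adjusted p of 0.0615 and 0.0599. In it 7 of the 42 were higher in the fissure and 0 lower, and 2 had a sign opposite to that of the brightest probe set, 1 each for Atp6v1a (0.02) and Atp6v1h (-0.20). Those higher were the second probe sets of Ctsh (1.27) and Atp6v1b2 (0.76), both other probe sets of Ctsz (0.88 and 0.82), and 1 each of Lamp2 (0.71), Npc2 (0.53) and Scarb2 (0.59). For Lamp2 this probe set read 864, 928 and 892 in the fissure, 622, 510 and 464 nasally and 652, 549 and 464 temporally (adjusted p = 0.019), with no overlap, where the brightest probe set gave 0.02. Another bright Lamp2 probe set read 2115, 2211 and 2228 in the fissure against 1394 to 2036 elsewhere, again with no overlap. Its change was 0.43 (adjusted p = 0.124). The last, dimmer and overlapping, gave 0.38 (adjusted p = 0.427), so the brightest probe set was the exception. Which transcripts of Lamp2 each probe set reads was not analysed here. In the limma fit of 23503 probe sets the other ones of Ctsb gave 0.32 to 0.86, and none passed (adjusted p from 0.0700 to 0.528). The second Tpp1 probe set, at 458 to 813, gave 0.51 (adjusted p = 0.0797). With the mean of all its probe sets Ctsb lost its call against temporal.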

How the data were processed

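RNA of 9 samples, 3 per region, was measured on Affymetrix mouse arrays. The authors deposited linear intensities of 45101 probe sets per array. The method that summarised probes and scaled arrays is not named in the labels. After trimming 2% from each end the mean was 150 on every array, so no further scaling was applied. Precision is limited by the number of arrays.

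Gene names came from the platform annotation and may be outdated. Among probe sets 34945 had 1 symbol, 932 had several, 9160 were unnamed there and 64 were controls, and 0 symbols needed updating from RefSeq (GRCm38.p6). Intensities were turned into log2(intensity + 16). A gene was tested if 3 or more arrays read it above their own 40th percentile, and 12770 were. limma 3.58.1 in R 4.3.3 fitted 1 mean per region to all 9 arrays, with Benjamini-Hochberg adjustment over all tested genes (threshold 0.05). Adjusted p-values of genes come from limma. The 4 comparisons set the fissure against the mean of both other regions and against each, and nasal against temporal.

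Deviations from region means correlated at 0.166 to 0.487 in the 9 same-letter pairs of arrays and at -0.438 to 0.218 in the other 18, so the letters behaved as a pairing, on the data alone. The main fit did not use this pairing. The letter entered as a block only in an alternative fit, named as such where its values are given. Simulated data were used to test the script. The genes, lists and tests were chosen with earlier results of these data known. Every gene of the list could be named, and those past the threshold, with the smallest p of each role, were given array by array. Of each pathway list the genes past the threshold were named, at most 6. Alternatives covered filter, scaling, pseudocount, probe sets, variance model, array weights, block, regions fitted and each array left out. Figures were drawn with matplotlib 3.10.9.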

Additional observations from a re-analysis of the deposited data

How the results depend on the processing

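No gene that passed changed sign under any alternative, 0 of the 38 passed as lower in the fissure, and 0 passed between nasal and temporal, where the median ran from -0.0471 to 0.0303 around 0.0021. For the fissure against the mean of both other regions the count of 9 went to 16 with the replicate block, 27 with array weights, 14 without the 3 arrays of letter B (added after seeing the data) and 3 to 17 leaving 1 array out, and the median of 0.3992 ran from 0.3044 to 0.5199 leaving 1 out. Against nasal the 6 went to 10 with the block, 23 with array weights, 10 without letter B and 2 to 12 leaving 1 out, with a median of 0.5159 with array weights and 0.3049 to 0.5199 leaving 1 out. Against temporal the 6 went to 12 with the block, 22 with array weights, 11 without letter B, 3 with a pseudocount of 1, 2 with only the regions compared in the fit and 1 to 15 leaving 1 out, and its median of 0.4239 went to 0.2931 with the Gapdh ratio as a covariate, also added after seeing the data. The 9 all passed with the block too. Why array weights call more genes was not tested. Of all tested genes, 1098 passed in that first comparison, 730 higher and 368 lower. This count and those that follow take both directions. Under the block 2172 passed, 1405 higher and 767 lower. With array weights 4100 passed, with 545 without fissure array A, 590 without C and 1721 without B. Against nasal 814 passed, with 1592 under the block and 2675 with array weights. Against temporal 685 passed, with 1541 and 3133. Over the alternatives other than leaving 1 array out, the counts ran from 904 to 4100 in the first comparison. They ran from 660 to 2675 against nasal and from 532 to 3133 against temporal. Against nasal, Tpp1 lost its call in 12 of 22 alternatives. The limits are 3 arrays per region, a fissure array that stands apart, and pairing known from the data alone.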
